A study of Mus musculus with 2 samples.

Results

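The alpha defensins and a set of other Paneth cell genes, most of them antimicrobial, were compared between samples labelled as intestinal stem cells. The samples came from mice that lack the circular RNA circPan3 and from mice that carry it. Members were the rows of the deposited array table whose platform annotation held exactly 1 gene symbol, where that symbol began with Defa or was Lyz1, Ang4, Ang, Pla2g2a, Itln1, Mptx1, Mptx2, Habp2 or Nupr1. The rule gave 24 genes, each with 1 row, out of 72688 rows in the table. They comprised 4 alpha defensin genes, 12 loci that carry a defensin pseudogene symbol and 8 other genes. Ang had no row of its own, because its row was annotated to Ang and Rnase4 together.

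The circPan3-/- array held total RNA of Lgr5-GFP-positive small intestinal cells from 8-week-old circPan3-/-;Lgr5GFP-CreERT2 mice, and the circPan3+/+ array held the same cell fraction from circPan3+/+;Lgr5GFP-CreERT2 mice. Both groups therefore carried the Lgr5GFP-CreERT2 allele, in which the locus of the stem cell receptor gene Lgr5 drives green fluorescent protein, and the cells were taken by sorting on that protein. The RNA was read on the Affymetrix Clariom D mouse array, which reports each transcript through a set of probes. There was 1 array per genotype, so no value has an error, no difference has a p-value, and each comparison is between 2 arrays; the sources used here do not say whether a sample was 1 mouse or a pool.

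Paneth cells sit beside the stem cells at the base of small intestinal crypts and release granules of antimicrobial proteins into the crypt lumen. Alpha defensins are short cationic peptides that permeabilise bacterial membranes; in the mouse, where those of the intestine are called cryptdins, the protease matrilysin (Mmp7) cleaves the precursors into active form. Mouse alpha defensin genes form a cluster of many near-identical copies, so probes for one copy can also read others. Wnt signalling through the transcription factor Tcf7l2 is known to drive cryptdin genes and other parts of the Paneth programme.

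Some of the copies are also alike in the sequence before the gene. RefSeq promoters on build GRCm38.p6, from 250 bases before to 50 bases after the annotated start, were found for 9 of the 24 members, including Defa21 and Defa22, and for 16 alpha defensin genes in all. Defensin promoters are shown here for the copies whose array differences are compared further on, Lyz1 and Lyz2 because these neighbouring lysozyme genes differed on the arrays, and Mptx1 because it was the member outside the defensins that held both motifs searched. All are printed 5′ to 3′ on the strand of the gene. Capitals mark matches on either strand to the T cell factor letters CTTTGNN, where the last pair is AA, AT, TA or TT, or to the TATA box letters TATAAA, and none of the marked matches overlapped another. The windows are chr8:21025295-21025594 on the plus strand for Defa21, chr8:21378267-21378566 on the plus strand for Defa2, chr8:21054790-21055089 on the plus strand for Defa23, chr10:117292819-117293118 on the minus strand for Lyz1, chr10:117282223-117282522 on the minus strand for Lyz2 and chr1:174330268-174330567 on the plus strand for Mptx1.
Defa21: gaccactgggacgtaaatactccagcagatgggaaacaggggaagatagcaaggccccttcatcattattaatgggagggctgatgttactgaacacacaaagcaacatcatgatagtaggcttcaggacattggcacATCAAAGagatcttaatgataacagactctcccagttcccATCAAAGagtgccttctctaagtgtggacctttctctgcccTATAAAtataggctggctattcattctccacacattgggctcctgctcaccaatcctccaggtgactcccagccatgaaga
Defa2: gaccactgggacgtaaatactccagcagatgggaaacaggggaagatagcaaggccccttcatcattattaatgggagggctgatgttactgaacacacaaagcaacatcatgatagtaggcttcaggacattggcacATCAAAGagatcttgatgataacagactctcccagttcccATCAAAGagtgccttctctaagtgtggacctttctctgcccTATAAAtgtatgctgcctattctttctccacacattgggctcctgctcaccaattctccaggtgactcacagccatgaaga
Defa23: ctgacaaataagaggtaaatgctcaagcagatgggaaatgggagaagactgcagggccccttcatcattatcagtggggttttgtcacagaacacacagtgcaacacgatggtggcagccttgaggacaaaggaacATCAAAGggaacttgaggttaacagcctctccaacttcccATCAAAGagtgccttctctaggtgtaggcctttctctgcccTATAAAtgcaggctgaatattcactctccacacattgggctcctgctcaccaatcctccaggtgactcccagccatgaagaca
Lyz1: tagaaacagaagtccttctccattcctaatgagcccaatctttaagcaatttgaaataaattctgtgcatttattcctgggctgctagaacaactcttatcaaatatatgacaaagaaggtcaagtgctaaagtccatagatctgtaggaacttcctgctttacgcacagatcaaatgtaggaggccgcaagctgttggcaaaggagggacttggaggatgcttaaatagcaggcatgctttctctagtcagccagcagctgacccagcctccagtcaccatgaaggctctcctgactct
Lyz2: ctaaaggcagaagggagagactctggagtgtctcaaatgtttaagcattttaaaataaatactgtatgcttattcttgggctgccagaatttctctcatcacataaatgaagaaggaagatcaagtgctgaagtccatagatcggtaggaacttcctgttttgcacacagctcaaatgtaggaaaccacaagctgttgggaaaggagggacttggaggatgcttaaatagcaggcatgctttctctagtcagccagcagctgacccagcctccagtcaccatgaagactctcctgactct
Mptx1: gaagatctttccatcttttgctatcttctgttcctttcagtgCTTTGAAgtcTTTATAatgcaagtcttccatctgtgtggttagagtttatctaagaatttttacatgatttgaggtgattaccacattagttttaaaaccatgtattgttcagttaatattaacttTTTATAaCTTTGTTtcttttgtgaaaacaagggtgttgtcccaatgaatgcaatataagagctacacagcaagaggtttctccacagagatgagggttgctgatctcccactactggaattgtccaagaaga

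Over all 105 pairs of defensin promoters whose genes had a row, the median identity was 74.3% and the lowest 50.9%, beside 48.4% between Defa21 and the unrelated Lyz1. Window ends left unaligned count as differences, so an offset of the annotated start lowers the identity of a pair. The percentages given here therefore do not measure sequence change alone. The promoters of Defa21 and Defa22 were identical over all 300 bases. So were those of Defa2 and Defa20, of Defa23 and Defa31, of Defa36 and Defa37, and of Defa42 and Defa43. Defa21 and Defa2 were 97.7% identical, differing in 7 aligned columns, and both held T cell factor matches beginning at positions -112 and -72 and a TATA match at -31, where -1 is the last base before the start. In Defa23 the same 3 matches lay at -114, -74 and -33. They lay at -127, -87 and -46 in Defa35 and at -155, -115 and -74 in Defa41, an offset pair scored at 82.6%. A T cell factor match was present in 13 of the 16 defensin promoters (81.25%), beside 16.9% of 27025 promoters of the same length in the table. A TATA match was present in 15 of the 16 (93.75%), beside 14.2% of all promoters. Many of the 16 are close or identical copies, so the same site is counted repeatedly and these shares are not over separate promoters. Among the 9 members with a promoter, 3 (33.3%) held each motif. Of the 7 members outside the defensins with a promoter, 1 held each motif, and it was Mptx1 in both cases. Lyz1 and Lyz2 were 82.5% identical over the window, and Mptx1 and Mptx2 were 76.7% identical. These matches are descriptions of letters, and no binding was measured.

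Members of the group were higher on the circPan3-/- array wherever they could be measured on both arrays. Values are log2 signals after robust multi-array averaging (RMA), a difference is circPan3-/- minus circPan3+/+, and 1 log2 unit is 2-fold. The median difference over the 24 members was 1.67, against 0.36 over the 14624 named genes whose mean signal reached the table-wide median of 2.53. Of the 24 members, 18 were higher and 0 were lower by 2-fold or more, where the shares among those named genes were 9.67% higher and 2.75% lower. A general shift is thus part of the differences given here, which are as deposited unless stated. Its size varied with level: the median was 0.47 over 403 named genes at the mean signal of the brighter defensin members. On the same arrays the 10 goblet cell markers had a median difference of 2.75 and Lgr5, the gene behind the sort, had a difference of -3.89. In RNA from a sorted fraction, more or fewer cells of a type and more or less RNA per cell cannot be told apart. With the differences centred on the median of 0.36, 16 members were 2-fold higher, where 3.84% of named genes were. After a smooth curve of difference on mean level was subtracted (lowess), 14 members were past 2-fold, where 3.44% of named genes were.

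A low signal on this array need not come from a transcript. The 95th percentile of the 5222 negative control rows was therefore used as a limit, at 5.56 on the circPan3-/- array, against 5.06 on the circPan3+/+ array. By this limit 14 members stood above background on both arrays, and all 14 were at least 2-fold higher on the circPan3-/- array. Defa-ps16, Nupr1 and Pla2g2a stood above the limit on the circPan3-/- array but not on the circPan3+/+ array, so their folds are lower bounds. The other 7 members, 6 defensin pseudogene symbols and Habp2, lay under the limit on both arrays and are given no fold. Counting a fold or a bound of at least 2, there were 17 higher members, beside 3.69% of named genes. A further feature of the circPan3+/+ column touches mainly the dimmer members: 9 members had a circPan3+/+ value that was also deposited for other rows, and 15 had a value of their own. Such recurrence was rare in the circPan3-/- column, and whether both columns were processed in the same way was not tested, so any effect of that is part of every difference.

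**Figure D1:**
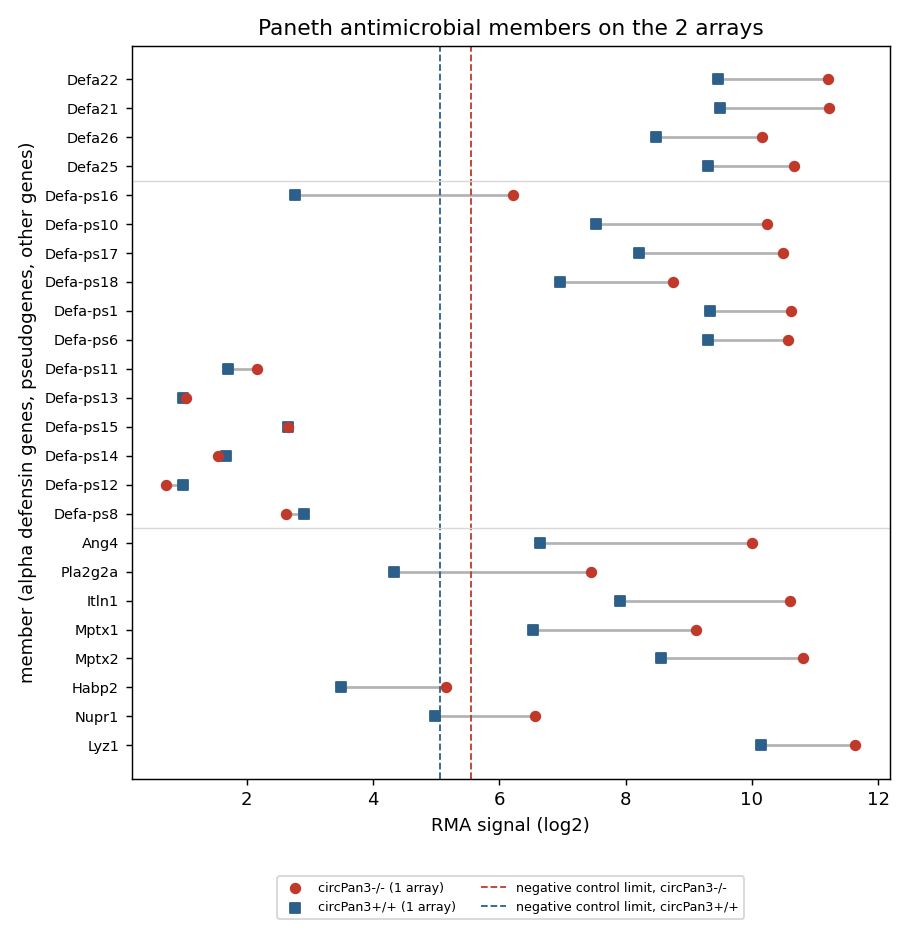
Log2 RMA signal (x axis) of the 24 members (y axis) on the circPan3-/- array (red circles) and the circPan3+/+ array (blue squares), 1 array each, with grey lines joining the pair and dashed lines at the negative control limits of 5.56 and 5.06. The 14 members above both limits all have the circPan3-/- circle to the right, while 6 defensin pseudogene symbols lie near 1 to 3 on both arrays with circle and square close together.

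The 4 alpha defensin genes with a row of their own all stood above both limits and were all higher without circPan3. Defa21 had a signal of 11.22 on the circPan3-/- array, against 9.49 on the circPan3+/+ array, a difference of 1.72 (3.30-fold). Defa22, whose promoter is identical to that of Defa21, had 11.21 in circPan3-/- cells and 9.47 in circPan3+/+ cells, a difference of 1.74. The 2 rows thus gave nearly the same value on each array, with differences that lay 0.013 apart. Defa25 had 10.67 on the circPan3-/- array, against 9.30 on the circPan3+/+ array, the smallest of the 4 differences at 1.37. Defa26 had 10.16 without circPan3 and 8.48 with it, a difference of 1.68. Over these 4 genes the SD of the differences was 0.17, which is a spread between rows that may share probes and is not an error.

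Loci with defensin pseudogene symbols split into a set above the limits and a set under them. Pseudogenes of this cluster are close copies of defensin genes, and whether signal at their rows is read from those genes was not tested. Of the 12, 5 stood above the limit on both arrays. Defa-ps10 had the largest difference of these, with 10.25 on the circPan3-/- array, against 7.54 on the circPan3+/+ array, 2.71 apart (6.55-fold). Defa-ps17 had 10.50 in circPan3-/- cells and 8.22 in circPan3+/+ cells, a difference of 2.28. The values of Defa-ps18 were 8.75 for circPan3-/- and 6.97 for circPan3+/+, 1.78 apart. Both remaining rows of this set had smaller differences than any of the 4 defensin genes. Defa-ps1 had 10.61 on the circPan3-/- array, against 9.34 on the circPan3+/+ array, a difference of 1.27, and Defa-ps6 had 10.57 in circPan3-/- cells and 9.30 in circPan3+/+ cells, a difference of 1.26. These were also the members that dropped under 2-fold once the general shift was taken off, at 0.92 for Defa-ps1 and 0.91 for Defa-ps6. Defa-ps16 had 6.22 on the circPan3-/- array against 2.77 on the circPan3+/+ array; the deposited difference of 3.45 was the largest of all members, but only a fold of at least 2.24 can be given.

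The 6 defensin loci under the limits, called dim here, showed no difference of 2-fold. Their differences ran from -0.28 to 0.45 with a median of -0.06, and their signals reached at most 2.66 on the circPan3-/- array, against 2.91 on the circPan3+/+ array. In this set Defa-ps11 had 2.16 without circPan3 and 1.71 with it, Defa-ps13 had 1.04 without and 0.99 with it, and Defa-ps15 had 2.66 on both arrays. Defa-ps8 had 2.63 on the circPan3-/- array, against 2.91 on the circPan3+/+ array, Defa-ps12 had 0.73 in circPan3-/- cells and 0.99 in circPan3+/+ cells, and Defa-ps14 had 1.54 in circPan3-/- cells and 1.67 in circPan3+/+ cells. On both arrays these loci could not be told from negative control rows. After centring on 0.36, 5 of the 6 lay below 0, at -0.30 to -0.64, and Defa-ps11 lay at 0.09. Values near 0 turn negative by this step alone, and most of these loci lie under the mean of 2.53 that defined the 0.36. After lowess the same 5 lay at -0.13 to -0.47 and Defa-ps11 at 0.26. No lower signal without circPan3 can be read from these background values.

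Position in the RefSeq gene table (GRCm38.p6), used here for order only, set most of the dim loci apart from the other rows. The table lists 40 alpha defensin loci on chromosome 8, of which 16 had a member row, 7 had a row whose platform symbol was a predicted gene model, 13 were read only by rows annotated to several genes, and 4 were not analysed here. Defa-ps12, Defa-ps13, Defa-ps14 and Defa-ps15, all dim, were the first 4 in order and lay among beta-defensin genes. Defa-ps11, also dim, was the last, with the beta-defensin gene Defb1 as its neighbour. Defa-ps8 was the exception: it was dim but lay inside the cluster, between Defa40 and Defa3, and RefSeq lists it as protein coding despite its name. Every other measured locus from Defa21 to Defa24 stood above the limit on both arrays, except Defa-ps16, which did so on the circPan3-/- array alone.

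**Figure D2:**
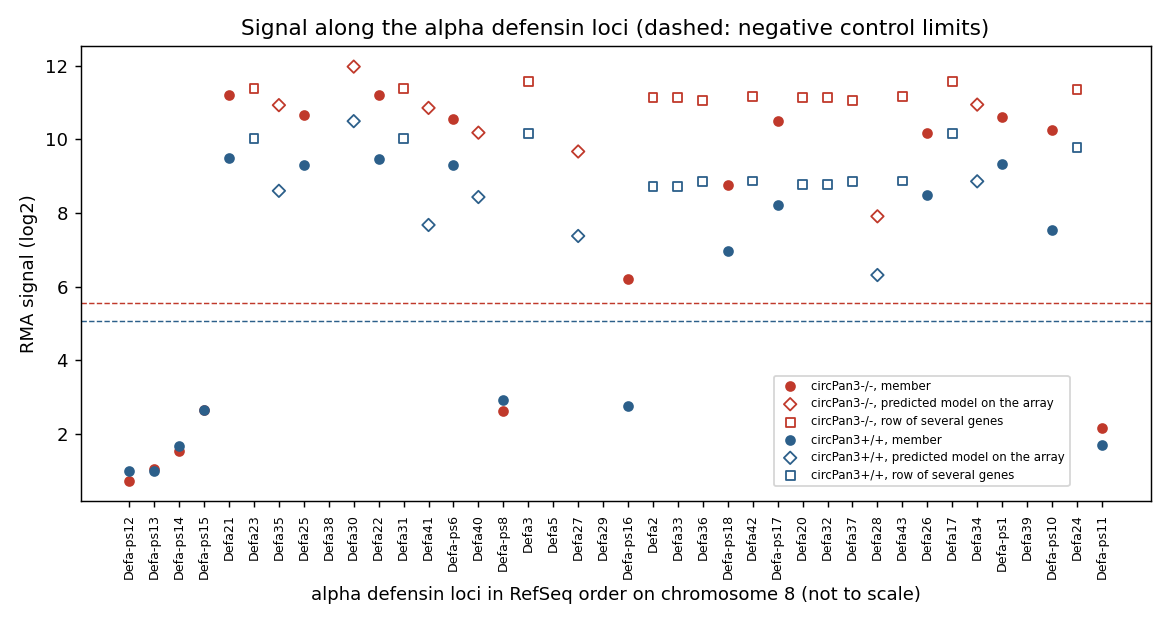
Log2 RMA signal (y axis) at 36 alpha defensin loci that had a row, in RefSeq order along chromosome 8 (x axis, evenly spaced, with the 4 loci not analysed left blank), on the circPan3-/- array (red) and the circPan3+/+ array (blue); filled circles are members, diamonds predicted models and squares rows of several genes, for which the brightest row is drawn, and the dashed lines are the negative control limits. The first 4 loci, Defa-ps8 and Defa-ps11 lie under 3 on both arrays, and at the remaining loci the red symbol lies above the blue one.

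The same direction held in 20 defensin rows that the member rule leaves out, 13 annotated to several genes and 7 to predicted models that RefSeq now calls alpha defensins. These rows were examined after the member values were known. Of the 20, 2 held identical values on both arrays, so that 19 were distinct. The 2 rows for Defa42 and Defa43 also shared their circPan3+/+ value, 8.87. All were at least 2-fold higher on the circPan3-/- array, where 9.67% of named genes were. These rows read near-identical copies and may share probes with each other and with the member rows, so they are not separate evidence. The differences ran from 1.35 to 3.18, with a median of 2.21 over the distinct rows. Defa41 had the largest difference, with 10.86 on the circPan3-/- array, against 7.68 on the circPan3+/+ array. Defa35 had 10.93 without circPan3 and 8.60 with it, a difference of 2.33. The smallest of the 7 differences at predicted models was that of Defa30, with 11.98 in circPan3-/- cells and 10.50 in circPan3+/+ cells, 1.48 apart. Defa28 had 7.91 for circPan3-/- and 6.32 for circPan3+/+, with a difference of 1.60. Defa27 differed by 2.30, Defa34 by 2.08 and Defa40 by 1.75.

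Rows of several genes were set beside each other, while how far the array resolves the copies was not tested. The 2 rows annotated to both Defa23 and Defa31 held exactly the same values, 11.38 on the circPan3-/- array, against 10.03 on the circPan3+/+ array, and were counted once. The 2 rows for Defa2 and Defa33 had differences of 2.42 and 2.22, those for Defa20 and Defa32 had 2.36 and 2.34, those for Defa36 and Defa37 had 2.29 and 2.21, and those for Defa42 and Defa43 had 2.31 and 2.12. Rows for Defa3, Defa17 and Defa30 differed by 1.52 and 1.43, and the row for Defa24 and Defa30 by 1.59. The differences fell into separate bands among the 12 distinct rows, 1 from 1.35 to 1.59 and 1 from 2.12 to 2.42. The signals of the 12 rows had an SD of 0.21 on the circPan3-/- array, against 0.60 on the circPan3+/+ array, so these rows lay closer together on the first array. The contrast was smaller over all 28 distinct defensin rows above both limits, at 0.83 for circPan3-/- and 0.96 for circPan3+/+. Over the 9 defensin members above both limits it was 0.73 against 0.94.

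Likeness of the promoters was set beside likeness of the differences. Among defensin genes read by separate rows, 11 pairs had promoters at least 90% identical, but some genes share a row, and only 7 of these pairs compare distinct rows. Over those 7 the differences lay a median of 0.62 apart. The pairs under 90% identity, with a median identity of 68.2%, gave 48 distinct comparisons, which lay a median of 0.66 apart. Some of these score low because their annotated starts are offset, such as Defa35 and Defa41 at 82.6%, whose differences lay 0.85 apart. The split at 90% therefore does not separate like from unlike sequence alone. Defa21 and Defa2 were 97.7% identical, yet the difference of 1.72 at Defa21 lay 0.70 below the 2.42 of the row for Defa2 and Defa33. On the circPan3-/- array the signals of that pair were 11.22 and 11.14, 0.081 apart, and on the circPan3+/+ array they were 9.49 and 8.71, 0.78 apart. Over the 7 distinct comparisons the median gap in signal was 0.071 on the circPan3-/- array, against 0.69 on the circPan3+/+ array. Over the 48 distinct comparisons under 90% identity it was wider on each array, at 0.32 for circPan3-/- and 1.175 for circPan3+/+. Most of the 7 set Defa21 or Defa22 against the rows that hold Defa2 or Defa20. These pairs share genes and may share probes, and signals of different rows also depend on their probes, so the gaps are given with no test.

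The 8 members outside the defensins were all higher on the circPan3-/- array as deposited, and 7 of them by a measured fold or bound of at least 2. Ang4, an angiogenin-family ribonuclease that kills bacteria, had the largest difference measured above both limits: 10.01 on the circPan3-/- array against 6.64 on the circPan3+/+ array, a difference of 3.37 (10.3-fold). The row annotated to Ang and Rnase4 had 5.33 in circPan3-/- cells and 4.68 in circPan3+/+ cells and lay under the limit on both arrays. Other angiogenin rows, named after their values were seen, were also higher without circPan3, from 0.95 at Ang6 to 2.03 at Ang-ps3. Ang2 had 6.01 on the circPan3-/- array, against 4.08 on the circPan3+/+ array, a bound of at least 1.93-fold, and it was the only angiogenin row beside Ang4 above either limit.

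The lectin and pentraxin members differed by 2.25 to 2.69. Itln1, intelectin-1, a lectin that binds microbial sugars, had 10.60 on the circPan3-/- array, against 7.92 on the circPan3+/+ array, a difference of 2.69 (6.43-fold). Its row carries more than 1 Entrez gene identifier, and which of the copies gave the signal was not tested. Mptx2, a mucosal pentraxin made by Paneth cells, had 10.81 without circPan3 and 8.57 with it, a difference of 2.25 (4.74-fold). Mptx1, its relative, had 9.11 in circPan3-/- cells and 6.53 in circPan3+/+ cells, a difference of 2.57 (5.95-fold).

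Among the enzymes, Lyz1, the Paneth lysozyme that cleaves bacterial cell walls, had the smallest difference of the 8 genes. It had 11.63 on the circPan3-/- array, against 10.15 on the circPan3+/+ array, 1.49 apart (2.80-fold), and after the lowess curve was subtracted the difference was 0.98. The neighbouring gene Lyz2, the lysozyme best known from macrophages, had 10.51 in circPan3-/- cells and 10.55 in circPan3+/+ cells, a difference of -0.03. Pla2g2a, a secreted phospholipase that degrades bacterial membranes, had 7.46 without circPan3 and 4.34 with it, at least 5.28-fold higher. RefSeq lists Pla2g2a as a transcribed pseudogene in the C57BL/6J reference, and the sources used here do not name the strain of the mice.

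Nupr1 and Habp2 are not known as antimicrobial proteins. Nupr1, a small nuclear protein induced by cell stress, had 6.56 in circPan3-/- cells and 4.98 in circPan3+/+ cells, a bound of at least 2.83-fold. Habp2, a secreted serine protease that binds hyaluronan, had 5.16 on the circPan3-/- array, against 3.49 on the circPan3+/+ array, both under the limit. Its deposited difference of 1.66 is therefore given without a fold.

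Whether the near-identical copies varied less among themselves than unrelated genes did was compared for rows above both limits. The 9 defensin members there had differences from 1.26 to 2.71, with a median of 1.72, an interquartile range of 0.41 and an SD of 0.48. The 5 other members there had differences from 1.49 to 3.37, with a median of 2.57, an interquartile range of 0.44 and an SD of 0.69. The SDs differed more than the interquartile ranges did, and with so few rows neither comparison was tested. The 28 distinct defensin rows above both limits, the left-out rows included, had a median of 1.93, an interquartile range of 0.73 and an SD of 0.48. The interquartile range was thus wider over the 28 rows than over the 9.

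Other genes of like signal were spread around a lower centre. There were 403 named genes outside the group whose mean signal lay within the range of the 9 defensin members, and their differences had a median of 0.47, an interquartile range of 0.52 and an SD of 0.71. Of these 403 genes 13.2% were at least 2-fold higher on the circPan3-/- array, against 9 of 9 defensin members. Over all 8 members outside the defensins, dim ones included, the interquartile range was 1.15. Over all 16 defensin members it was 1.71, because the 6 dim loci lay near 0 and the other 10 well above it.

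**Figure D3:**
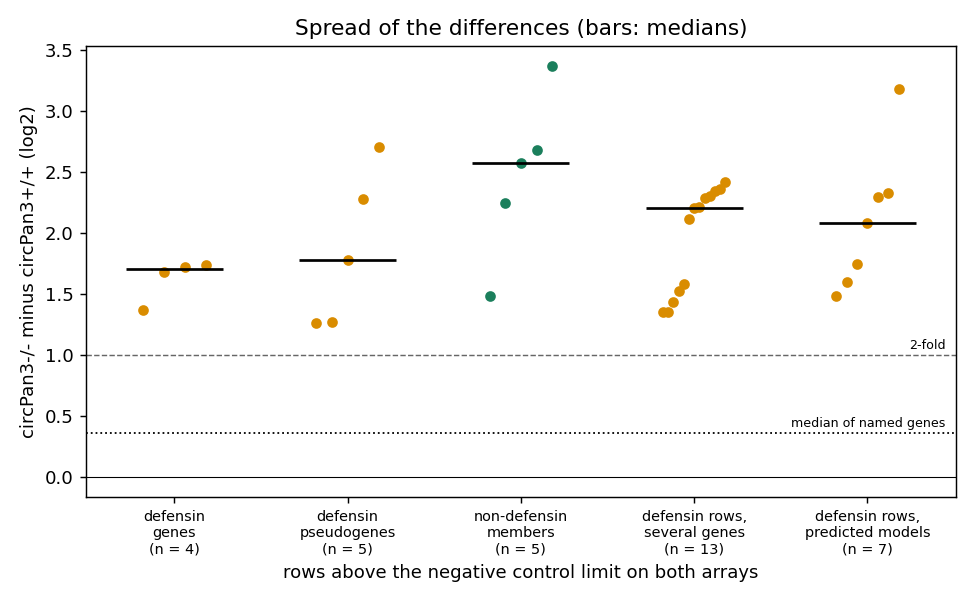
Difference circPan3-/- minus circPan3+/+ in log2 units (y axis) for rows above the negative control limit on both arrays, by kind of row (x axis), with 1 point per row and bars at the medians; the dashed line is 2-fold and the dotted line the median of named genes, 0.36. The 4 defensin genes lie within 1.37 to 1.74, the 5 members outside the defensins reach 3.37, and the 13 rows of several genes, 2 of them identical, fall into a lower and an upper band.

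Signal and difference were also set against each other across rows. Over the 28 distinct rows above both limits, Pearson's r between mean signal and difference was -0.28 and Spearman's rho -0.52. Over the 403 genes of like signal the same coefficients were -0.03 and 0.04. Both quantities come from the same 2 values of each row and the rows share copies, so the coefficients describe these arrays and are given with no p.

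**Figure D4:**
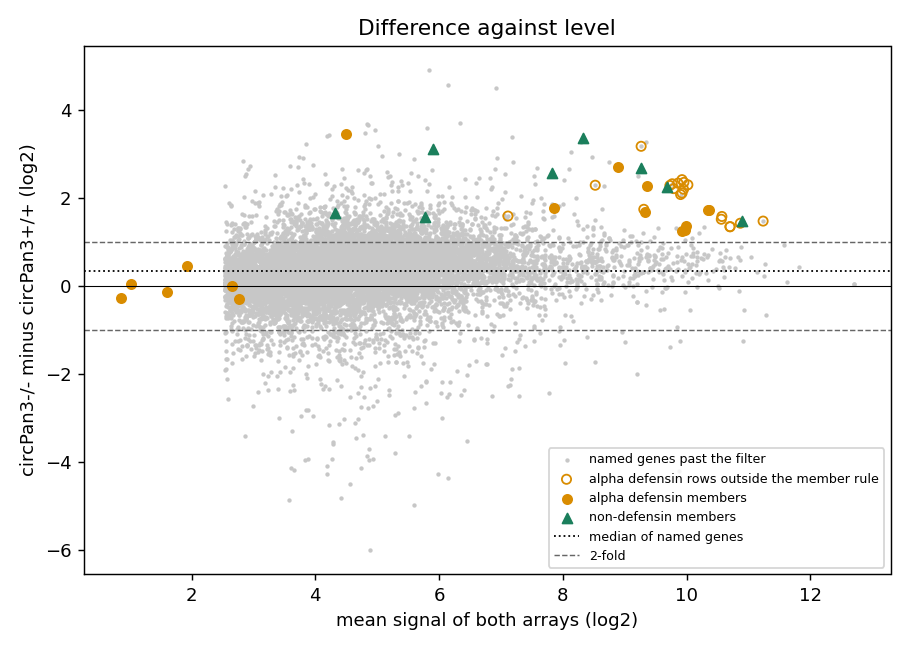
Difference circPan3-/- minus circPan3+/+ (y axis, log2) against the mean signal of both arrays (x axis, log2) for the 14624 named genes past the filter (grey), the defensin members (filled orange), the left-out defensin rows (open orange) and the other members (green triangles), 1 array per genotype. Defensin rows with a mean signal over 7 all lie above the upper dashed line at 2-fold, and the dotted line marks the median of named genes at 0.36.

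Other genes of Paneth cells had a smaller median difference than the members. Of a list of 26, mostly regulators and processing genes but with the lysozyme gene Lyz2 among them, 25 were measured, with a median difference of 0.79. By 2-fold, 9 were higher and 1 was lower, where 9.67% and 2.75% of named genes were. The 1 lower gene, Lrrk2, lay under the limit on both arrays. By a measured fold or bound 6 were higher and 0 lower, where 3.69% of named genes were higher. The 6 included Sox9, Fzd5 and Cd24a, with differences of 1.37, 1.38 and 1.27. Mmp7, which processes the defensin precursors, had 8.45 on the circPan3-/- array, against 6.56 on the circPan3+/+ array, a difference of 1.89. The digestive cofactor gene Clps (colipase) had 8.80 without circPan3 and 6.28 with it, a difference of 2.51. Pnliprp2, a lipase-related gene, had 8.20 in circPan3-/- cells and 4.48 in circPan3+/+ cells, at least 8.81-fold higher. Atoh1, the transcription factor that commits cells to the secretory lineage, had 5.63 in circPan3-/- cells and 3.44 in circPan3+/+ cells, a bound of at least 1.48-fold. The 2 lowest differences among measurable members were at Guca2b (uroguanylin), with 8.11 on the circPan3-/- array, against 8.49 on the circPan3+/+ array, and at Lyz2. Of the 25 genes, 12 lay under the limit on both arrays, among them Gfi1, Nod2, Ephb3 and Wnt3, and give no fold.

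Antimicrobial genes of the wider intestine were mixed. Of 23 such genes 20 were measured, with a median difference of -0.07. As deposited 3 were higher and 7 lower by 2-fold, where 9.67% and 2.75% of named genes were. By a measured fold or bound 3 were higher and 2 lower, where 3.69% of named genes were higher and 80 of 14624 lower. Pigr, which carries immunoglobulin A across the epithelium, had 10.47 on the circPan3-/- array, against 7.95 on the circPan3+/+ array, a difference of 2.51. The lectin gene Reg4 differed by 1.63 and the goblet cell lectin gene Zg16 by 1.14. At the other end Reg1 had 3.43 without circPan3 and 6.83 with it, at least 2.42-fold lower. Reg3g, measured above both limits, had 9.27 on the circPan3-/- array, against 10.51 on the circPan3+/+ array, 2.37-fold lower. These were the 2 genes lower by a measured fold or bound of at least 2. S100a8, a subunit of the neutrophil protein calprotectin, had 1.92 in circPan3-/- cells and 5.85 in circPan3+/+ cells, at least 1.23-fold lower.

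The wider gene families of the members lay at background for the most part. None of 10 other secreted phospholipase genes stood above a limit on either array (median difference 0.37), nor did any of 6 other pentraxin genes (0.15) or of 40 beta-defensin genes (0.15). Of these genes 0 were 2-fold higher and 1, a beta-defensin, was 2-fold lower, where 9.67% and 2.75% of named genes were. Of 9 lysozyme-related genes 8 were under the limits, Lyz2 being the exception, and the median was 0.03. Of 10 other angiogenin and ribonuclease genes 5 had a row of their own, with a median of 0.95; Rnase1 had 5.95 on the circPan3-/- array, against 2.51 on the circPan3+/+ array, at least 1.85-fold higher. Both other intelectin genes listed had no row of their own and were not analysed here. After centring, the medians of the pentraxins, the lysozymes and the beta-defensins were below 0, at -0.21, -0.33 and -0.21.

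**Figure D5:**
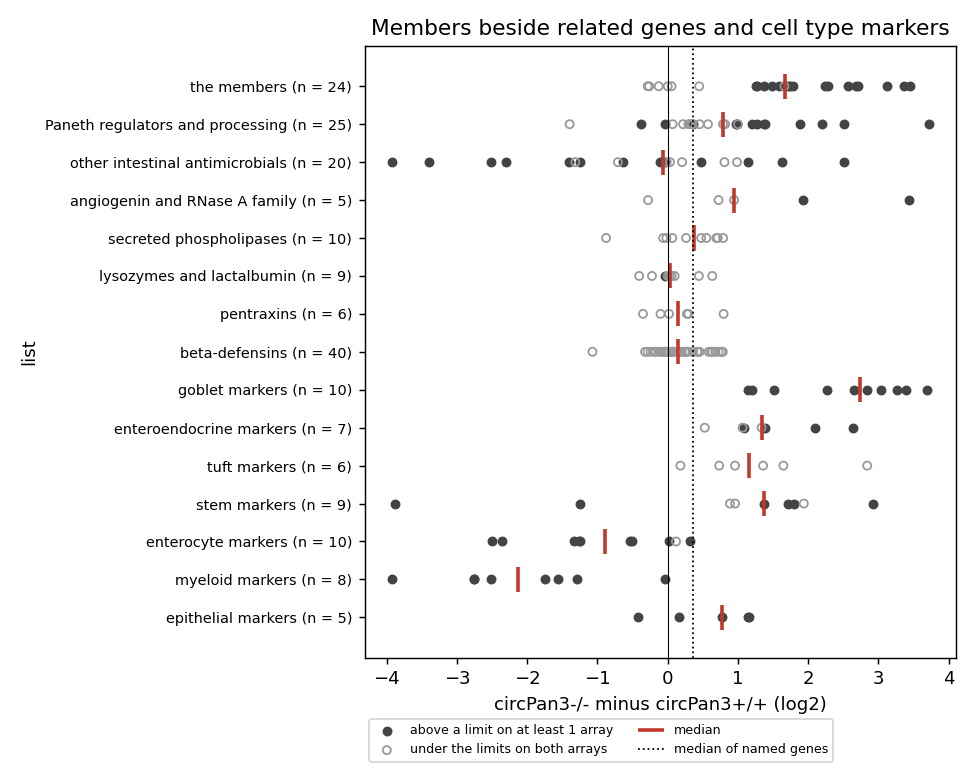
Difference circPan3-/- minus circPan3+/+ (x axis, log2) of each measured gene in the members, the related gene lists and the cell type marker lists (y axis, with the number measured), filled where the gene stood above the negative control limit on at least 1 array and open otherwise; red bars are list medians and the dotted line is the median of named genes, 0.36. The goblet markers, with a median of 2.75, lie furthest right, the beta-defensins cluster near 0 as open circles, and 7 of the 8 myeloid markers lie left of -1; differences are drawn as deposited, not as bounds.

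Markers of several cell types also differed between the arrays. For comparison, 9.67% of named genes were 2-fold higher and 2.75% lower as deposited. By a measured fold or bound 3.69% were higher, and 80 of 14624 were lower. All 10 goblet markers were at least 2-fold higher, 9 of them by a measured fold or bound, with a median deposited difference of 2.75. Measured differences ran from 1.14 at Zg16 to 3.40 at Klk1, and Ccl28, under the limit on the circPan3+/+ array, was at least 3.07-fold higher. Their signals ran from 5.62 to 10.16 on the circPan3-/- array and from 2.99 to 8.55 on the circPan3+/+ array. The mucin gene Muc2 had 9.65 in circPan3-/- cells and 6.60 in circPan3+/+ cells. Of 7 enteroendocrine markers 6 were 2-fold higher as deposited and 3 by a measured fold or bound. Chga differed by 1.08, and Gip, under the limit on the circPan3+/+ array, was at least 1.92-fold higher. After centring, 8 goblet and 3 enteroendocrine markers were 2-fold higher, where 3.84% of named genes were. The 6 tuft markers were all under the limits. Of 10 enterocyte markers 5 were 2-fold lower and 0 higher (median -0.89), from -2.50 at Apoa4 to 0.32 at Vil1. Of 8 myeloid markers 7 were 2-fold lower as deposited (median -2.13), but none of these stood above the limit on the circPan3-/- array, and 2, Cd68 and Itgam, were lower by a bound of at least 2-fold; Lyz2 was the eighth. The 5 epithelial markers ranged from -0.42 at Krt20 to 1.16 at Cdh1.

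The labelled cell type was checked by its own markers. Lgr5, the gene behind the sort, had 7.02 on the circPan3-/- array, against 10.91 on the circPan3+/+ array, a difference of -3.89, and stood above the limit on both. Of 9 measured stem cell markers 5 were 2-fold higher as deposited and 3 by a measured fold or bound, with Slc12a2 furthest at 2.93. Among named genes 9.67% and 3.69% were. Lgr5 and Olfm4 were 2-fold lower, where 2.75% of named genes were as deposited. Pan3, the host gene of the deleted circular RNA, had 5.64 without circPan3 and 4.84 with it. The circPan3+/+ value lay under its limit, so the difference is a bound of at least 0.58. The Pan3 row is not specific to the circular form. The part of goblet, enterocyte, myeloid or stem cell content in the differences of the members was not tested.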

How the data were processed

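Total RNA from 2 samples was profiled on 1 array each. Affymetrix Power Tools and RMA are named in the submitters' processing notes; the sources used here give neither versions nor a genome build. The values the authors deposited were taken as log2 signal from their range, -0.18 to 13.07. With 1 array per genotype, precision could not be estimated. In the circPan3-/- column 4.20% of values recurred in another row, against 69.1% in the circPan3+/+ column. Their distributions also differed, and whether the arrays were processed alike was not tested. Rows with identical values were counted once, a choice made after seeing the data.

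Rows were named from the platform annotation (updated through the RefSeq table for gene lists), taking the brightest row per symbol. Named genes with a mean of at least 2.53, the median of all rows, served as background, with 2-fold as the rule of size. A fold is a bound where the dimmer value lies under the 95th percentile of negative controls. Alternatives were centring, lowess (span 0.3), quantile normalization, 1.5-fold, the 99th percentile and other row choices. Promoter identity came from global alignment (Biopython 1.88), with unaligned window ends counted as differences. It took the place of the planned protein identity, since proteins were not used here. Functions were checked on simulated data (Python 3.11.15, statsmodels 0.14.6).

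The text names every member, of each related list up to the 3 highest and 2 lowest measurable genes, the highest and lowest of each marker list, and Lgr5, Mmp7, Muc2 and Pan3; other genes were chosen after their values were seen. The members and lists were chosen with earlier results of these data known.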

Additional observations from a re-analysis of the deposited data

How the results depend on the processing

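No paired analysis was possible because there was 1 array per genotype, and for the same reason no sample could be left out. The median difference of the members was 1.67 as deposited, 1.32 centred, 1.19 after lowess and 1.46 after quantile normalization. The count of members at least 2-fold higher was 18 as deposited, 16, 14 and 18 under the same 3 scalings, 18 at 1.5-fold, 13 with bounds at the 99th percentile, 14 among members with unshared values, and 25 with updated symbols, which add the 7 predicted models; the count lower was 0 under each scaling. The share of named genes at least 2-fold higher was 9.67% as deposited, 3.84% centred, 3.44% after lowess and 4.31% after quantile normalization, and 30.3% were past 1.5-fold.

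The interquartile range over all 16 defensin members, 1.71, was 1.38 after lowess, 0.12 without pseudogenes and 0.71 for rows above the limit on at least 1 array, and the SD was 1.13. For the 9 rows above both limits it was 0.29 after quantile normalization. For the 8 other members it was 1.15 as deposited, 1.04 after lowess and 1.26 after quantile normalization, with an SD of 0.72.

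List medians after centring, lowess and quantile normalization, in that order, were 0.43, 0.36 and 0.45 for Paneth regulators, -0.43, -0.58 and -0.19 for other antimicrobials, 0.59, 0.76 and 0.76 for angiogenins and ribonucleases, and 0.013, 0.037 and 0.053 for phospholipases. They changed sign for lysozymes, at -0.33, -0.16 and -0.11, for pentraxins, at -0.21, -0.10 and -0.069, and for beta-defensins, at -0.21, -0.035 and -0.021. Among single members 2 changed sign, both under the limits: Defa-ps13, at -0.30, -0.13 and -0.0069, and Defa-ps15, at -0.35, -0.18 and -0.18. Centring subtracts the shift of 0.36 by construction. Averaging the rows of each symbol changed no member value. The cause of the other changes was not tested.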
